A study of Mus musculus with 24 samples.

Results

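The genes described here are the 93 protein-coding mouse genes whose symbols begin with Kcn, with Kcnj10 left out, of 21883 protein-coding genes on the main chromosomes of the assembly GRCm38.p6. The rule reads the symbol alone and uses no measured value, but the family was picked with earlier results of these data known. By symbol prefix they fall into groups, whose names need not hold for every member. The groups hold 30 genes for pore-forming subunits of voltage-gated (Kv) channels and 10 for Kv subunits that form no channel alone (called silent). A further 8 were grouped as channels gated by calcium or sodium, and 14 as inward rectifiers. There are 14 for K2P channels, whose subunits hold a pair of pore domains, and 17 grouped as accessory, which form no pore. The prefix is a naming rule, and it joins genes of very different expression.

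The study took retina of wild-type mice 2 days (P2) and 17 days (P17) after birth and used CUT&RUN, in which an antibody brings a nuclease to a chromatin protein and the DNA cut free around it is sequenced. Of its 24 libraries, made from 600000 nuclei each, each age had 4 for the transcription factor SOX8 (2 antibodies with 2 libraries each) and 2 each for SOX9, the histone marks H3K4me3 and H3K27ac, and a nonspecific IgG. The P2 and P17 groups share tissue and genotype and differ in age, and whole retina was used, so the cell types were not separated. What is described here comes from 8 lists of peaks, with a single list per age and antibody target. No library is named in a list, the score was 0 in every peak, and IgG was not analysed here. So no value below has a replicate error, no difference between lists was tested, and the depth of the libraries is unknown. The same count over all protein-coding genes is given as background.

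Potassium channels let potassium leave or enter a cell along its gradient and so set the resting potential and end each electrical signal. In the retina, Müller glia clear potassium released by neurons through inward rectifiers, rods and cones shape their light response with Kv channels of their inner segment, and fast-spiking neurons use Kv channels that open and close quickly. H3K4me3 marks active promoters and H3K27ac active promoters and enhancers. SOX8 and SOX9 are related factors of glial and progenitor cells.

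The lists differed widely in length. They held 2653 peaks for P2 SOX8, 5476 for P2 SOX9, 2400 for P17 SOX8 and 2855 for P17 SOX9, 9134 and 9629 for H3K4me3, and 287845 for P2 but 29909 for P17 H3K27ac. Counts per gene and their change with age move with these lengths. As a check of the tissue, P17 SOX9 and P17 H3K4me3 peaks lay at 5 of 5 rod marker genes, while none of 3 microglia, 3 endothelial or 2 lens markers had an H3K4me3 or SOX peak at either age. All 8 of these had P2 H3K27ac. Of 3 pigment epithelium markers, 2 (Best1 and Rgr) had P17 H3K4me3 and 1 in each SOX9 list a peak (Best1 at P2, Rgr at P17), and of 2 astrocyte markers, Gfap had H3K4me3 at both ages and Pax2 P17 SOX8. Of 5 Müller glia markers, 4 had H3K4me3 at P2 and 1 (Glul) at P17. SOX8 lay at 2 of these 5 at P2 and at 0 at P17, and SOX9 at 3 and at 1 (Apoe). P17 SOX8 lay at 4 of 5 rod markers. The P17 SOX lists thus held peaks at rod markers more than at Müller glia markers, and the reason was not tested.

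A gene was said to have a peak when a peak overlapped it, or 5 kb on either side, by 1 bp or more. At P2, SOX8 peaks lay at 9 of 93 potassium channel genes (9.68%), against 15.1% of all protein-coding genes. SOX9 peaks lay at 15 (16.1%, against 27.7%). At P17 the counts were 12 for SOX8 (12.9%, against 13.0%) and 14 for SOX9 (15.1%, against 15.7%). The channel genes thus stood below the background at P2 in both SOX lists and at the background at P17.

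H3K4me3 lay at 27 channel genes at P2 (29.0%, against 49.3%) and at 39 at P17 (41.9%, against 50.9%), below the background at both ages and by less at P17. H3K27ac lay at 88 genes at P2 (94.6%, against 81.8%) and at 53 at P17 (57.0%, equal to the background of 57.0%). H3K27ac without H3K4me3 was found at 61 genes at P2 (65.6%, against 32.6%) and at 20 at P17 (21.5%, against 9.07%). The P2 H3K27ac list is the long one. With only its widest peaks in the P17 number, 48 genes had one (51.6%, against 40.5%).

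The counts were lower close to gene starts. Within 1 kb of a start (of both gene ends where RefSeq's promoter table lists none), P2 SOX8 lay at 4 channel genes (4.3%, against 12.1%), P2 SOX9 at 9 (9.68%, against 22.6%), P17 SOX8 at 7 (7.53%, against 8.9%) and P17 SOX9 at 10 (10.8%, against 10.8%). H3K4me3 lay there at 19 at P2 (20.4%, against 44.2%) and 30 at P17 (32.3%, against 45.5%), and H3K27ac at 65 (69.9%, against 67.2%) and 33 (35.5%, against 47.3%). Again the P17 SOX counts lay nearer to the background than the P2 counts.

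**Figure D1:**
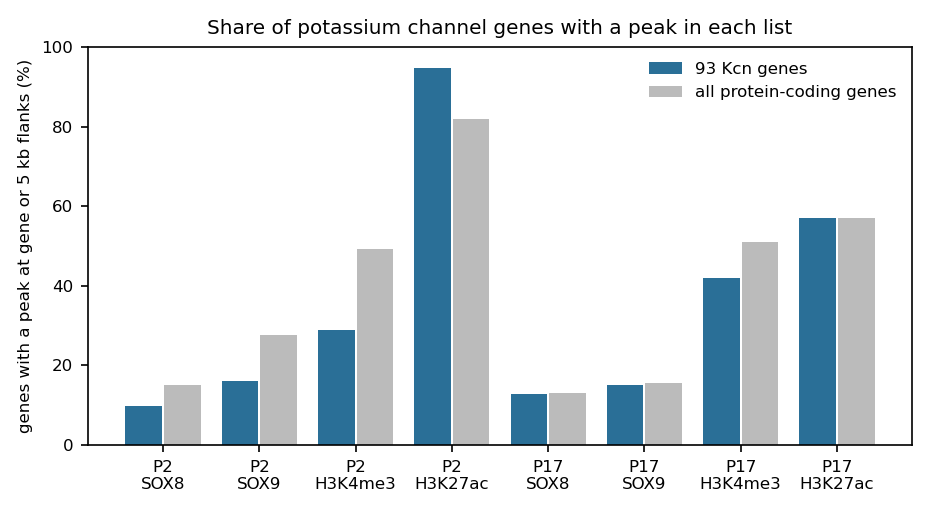
Bars give the percentage of genes with a peak at the gene or its 5 kb flanks in each of the 8 lists, for 93 Kcn genes and for all protein-coding genes. The Kcn bars lie below the grey bars for P2 SOX8, P2 SOX9 and H3K4me3 at both ages, above them for P2 H3K27ac, and level with them (12.9% against 13.0% for SOX8) in 3 P17 lists.

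All 93 genes can be accounted for by the peaks they had. A SOX peak in at least 1 list was found at 24 (25.8%, against 33.8% of all genes), H3K4me3 without SOX at 20 (21.5%, against 23.1%), H3K27ac as the only mark at 45 (48.4%, against 25.3%), and no peak at 4 (4.3%, against 17.7%). The 4 genes without a peak were Kcns1 (a silent Kv subunit), Kcnj8 (the pore of a vascular ATP-sensitive channel), Kcne3 (an accessory subunit) and Kcnk9 (a K2P leak channel). Of the 24 genes with a SOX peak, 20 also had H3K4me3 at some age (83.3%, against 92.2% of all genes with a SOX peak). The other four were Kcng4, Kcnj11, Kcnj4 and Kcnk12.

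The SOX shares were also counted separately for genes with and without H3K4me3 of the same age. Among the 27 channel genes with P2 H3K4me3, SOX9 peaks lay at 13 (48.1%, against 53.3% of all genes with that mark) and SOX8 peaks at 9 (33.3%, against 29.8%). Among the 66 channel genes without it, SOX9 lay at 2 (3.03%, against 2.91%) and SOX8 at none (against 0.748%). At P17, SOX9 lay at 12 of 39 genes with H3K4me3 (30.8%, against 27.4%) and SOX8 at 11 (28.2%, against 23.1%). Among the 54 without it, SOX9 lay at 2 (3.7%, against 3.64%) and SOX8 at 1 (1.85%, against 2.59%). Among genes with P2 H3K4me3 the channel genes thus lay near the background, above it for SOX8 and below it for SOX9. At P17 those with H3K4me3 lay above it for both, on few genes. Over all 93 channel genes the P17 shares did not lie above it (SOX8 12.9% against 13.0%, SOX9 15.1% against 15.7%).

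A set of 7 channel genes had peaks in all 4 SOX lists (7.53%, against 6.45% of all genes), and the same 7 had peaks in all 8 lists (against 6.32%). No other channel gene had SOX peaks at both ages, whatever the factor, so that share was 7.53% too, against 14.0% of all genes. SOX8 was present at both ages at these 7 (against 8.08%) and SOX9 likewise (against 11.4%). Those described here are Kcnc1 (a fast Kv3 channel of rapidly firing neurons), Kcnh2 (the ERG channel, best known from the heart), Kcnn1 (a small-conductance calcium-activated channel), Kcnab2 (a cytoplasmic beta subunit of Kv1 channels), Kcnj14 (an inward rectifier of neurons) and Kcnk4 (TRAAK, a K2P channel that opens on membrane stretch). The 7 come from 5 of the 6 families, with none among the silent subunits.

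At Kcnc1 the widest peak measured 2483 bp in P2 SOX8, 4053 bp in P2 SOX9, 3697 bp in P17 SOX8 and 8293 bp in P17 SOX9. One peak of each list covered the gene start. The 8293 bp peak lay 26222 bp downstream of that start, inside the gene, and only the P17 SOX9 list had it.

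Kcnn1 had the widest P2 SOX8 peak (4176 bp) and the widest P2 SOX9 peak (5235 bp) of the channel genes. At P17 a SOX9 peak of 12745 bp ran from its upstream end past a second start inside the gene, and ranked 82 by width among 2855 P17 SOX9 peaks. SOX8 had separate peaks of 3846 and 3294 bp over the same stretch. A further peak of each list, 1937 to 3964 bp wide, lay within 5 kb of Kcnn1 but over the start of its neighbour Arrdc2.

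Kcnab2 had 1 SOX peak in each list but P17 SOX9, which had 4. The peaks over its start, on chromosome 4 near 152477549, measured 2370 bp in P2 SOX8, 3299 bp in P2 SOX9, 3233 bp in P17 SOX8 and 3585 bp in P17 SOX9. This start is shared with the neighbour Nphp4, whose start lay under the same peaks. The 3 other P17 SOX9 peaks, of 6741, 6888 and 7614 bp, lay inside or at the far end of Kcnab2 and overlapped P17 H3K27ac. None of the 3 overlapped a P2 SOX peak or a P17 SOX8 peak.

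At Kcnh2 a peak of each list lay over its upstream end, with widths of 3275 bp (P2 SOX8), 3369 bp (P2 SOX9), 4168 bp (P17 SOX8) and 4914 bp (P17 SOX9). A start listed inside the gene was covered by SOX9 at P2 (4006 bp) and by SOX8 at P17 (2609 bp). These internal peaks overlapped H3K27ac of their age and no H3K4me3.

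For Kcnk4 and Kcnj14 the peaks belonged mostly to neighbours. Every SOX peak within 5 kb of Kcnk4 lay outside the gene and over a start of Esrra, or of Bad and Gpr137. Peaks near Kcnj14 lay over the start of Cyth2 in all 4 lists, with widths of 2157, 3025, 3858 and 4561 bp, and of these the P17 SOX9 peak alone reached Kcnj14 itself. A second P17 SOX9 peak, of 6663 bp, lay on the other side of the gene over the start of Grwd1. The widest P17 H3K4me3 peak of any channel gene, of 16298 bp, spanned the whole of Kcnj14 and also covered the start of Cyth2. The widest P2 H3K4me3 peak in the Kcnj14 window, of 3391 bp, lay outside the gene over the Cyth2 start.

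The promoters below show what lay under SOX peaks at starts of 5 genes: Kcnc1, Kcnab2 and Kcnn1 from the genes with all 4 SOX lists, and Kcng4 and Kcna2 from those with SOX peaks at P17 alone. Each runs 5′ to 3′ from 250 bases before to 50 bases after a start listed by RefSeq on GRCm38.p6. Capitals mark ACAATG or ACAAAG, forms of the SOX core motif, on either strand.

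Kcnc1 (chr7:46396218-46396517, plus strand): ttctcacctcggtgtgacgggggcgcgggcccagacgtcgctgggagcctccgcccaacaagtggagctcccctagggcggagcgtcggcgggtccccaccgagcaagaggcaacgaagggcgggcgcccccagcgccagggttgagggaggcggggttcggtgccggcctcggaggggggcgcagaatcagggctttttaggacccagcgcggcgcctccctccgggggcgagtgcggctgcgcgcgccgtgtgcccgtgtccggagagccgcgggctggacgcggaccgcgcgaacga

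Kcnab2 (chr4:152477500-152477799, minus strand): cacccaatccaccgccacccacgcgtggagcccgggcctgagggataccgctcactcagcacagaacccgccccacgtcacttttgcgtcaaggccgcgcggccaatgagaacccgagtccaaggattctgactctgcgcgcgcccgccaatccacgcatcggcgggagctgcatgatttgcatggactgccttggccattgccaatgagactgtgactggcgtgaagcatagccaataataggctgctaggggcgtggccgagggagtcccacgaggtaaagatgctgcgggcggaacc

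Kcnn1 (chr8:70863209-70863508, minus strand): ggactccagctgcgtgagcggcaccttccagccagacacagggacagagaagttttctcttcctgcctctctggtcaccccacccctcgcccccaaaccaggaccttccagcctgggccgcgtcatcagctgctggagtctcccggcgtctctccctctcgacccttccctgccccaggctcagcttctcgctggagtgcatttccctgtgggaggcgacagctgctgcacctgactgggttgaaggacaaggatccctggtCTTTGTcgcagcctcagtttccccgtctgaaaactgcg

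Kcng4 (chr8:119635631-119635930, minus strand): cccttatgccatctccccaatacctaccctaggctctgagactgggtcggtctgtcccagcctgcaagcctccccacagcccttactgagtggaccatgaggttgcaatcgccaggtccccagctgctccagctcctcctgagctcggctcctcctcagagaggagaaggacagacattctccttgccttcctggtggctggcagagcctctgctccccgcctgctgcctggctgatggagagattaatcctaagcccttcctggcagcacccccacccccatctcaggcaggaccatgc

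Kcna2 (chr3:107101317-107101616, plus strand): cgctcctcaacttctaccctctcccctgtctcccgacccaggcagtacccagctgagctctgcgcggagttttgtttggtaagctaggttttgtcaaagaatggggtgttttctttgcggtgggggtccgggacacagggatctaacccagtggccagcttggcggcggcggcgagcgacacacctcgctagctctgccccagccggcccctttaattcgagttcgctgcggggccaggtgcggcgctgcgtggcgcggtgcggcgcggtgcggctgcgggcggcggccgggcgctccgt

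The Kcnc1 and Kcnab2 starts lay under a peak of all 4 SOX lists, that of Kcnn1 under P2 SOX8, P2 SOX9 and P17 SOX9, that of Kcng4 under both P17 SOX lists and that of Kcna2 under P17 SOX9. Only the Kcnn1 window holds a match, of ACAAAG on the reverse strand. The windows differ in CpG dinucleotides, with 41 in Kcnc1, 31 in Kcna2, 25 in Kcnab2, 13 in Kcnn1 and 4 in Kcng4. Over all 93 listed promoters of channel genes (68 genes), 18 held either motif (19.4%, against 25.7% of 21262 promoters of protein-coding genes). Of the 11 under a SOX peak, 3 held one (27.3%, against 17.6% of all promoters under a SOX peak). The head-to-head pair of ACAAT and ATTGT, 3 to 5 bases apart, was in none of the 93 and in 0.0894% of all promoters. The median CpG count was 21.0 under a SOX peak and 9.0 over all channel gene promoters, against 25 and 13.0 for all genes. A motif match is a description of these letters and does not locate a binding site.

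SOX peaks at P17 and none at P2 were found at 8 channel genes (8.6%, against 5.48% of all genes). Those described here are Kcnj9, Kcng4, Kcnj11, Kcnj12, Kcna2, Kcnv2 and Kcnh6. At each of the 8, a peak overlapped the gene itself. Their SOX9 gains were 7 (7.53% of channel genes, against 4.34% of all genes) and their SOX8 gains 5 (5.38%, against 4.94%). For both factors the P2 list was the longer, and it was cut to its widest peaks, as many as the P17 list held. This could only add gains, since the P17 lists stayed whole, and no gene was added to the 7 and 5. That alternative was added once the values had been seen. With the wider 50% of each list, Kcna2 and Kcnv2 were not among the SOX9 gains, nor Kcnj12 among the SOX8 gains.

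Among these were a pair of genes for silent subunits. Kcnv2 codes for Kv8.2, which shapes the inner segment current of rods and cones and is mutated in a human cone dystrophy. Kcng4 codes for Kv6.4. Neither had a SOX or H3K4me3 peak at P2.

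At Kcnv2, P17 SOX9 covered 4139 bp on chromosome 19 from 27321806 to 27325944, over the low-coordinate end of the gene, and SOX8 had no peak. It overlapped P17 H3K4me3 of 10567 bp and P17 H3K27ac of 24100 bp, while P2 had H3K27ac peaks of at most 4820 bp. At Kcng4, P17 SOX8 (3853 bp) and P17 SOX9 (7414 bp) overlapped each other over the gene start. H3K27ac peaks were present at both ages, widest at 5661 and 6967 bp, and H3K4me3 at neither.

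The inward rectifier genes Kcnj9, Kcnj11 and Kcnj12 had SOX peaks at P17 alone. Kcnj9 codes for a subunit of the G protein-gated channels. Its P17 peaks were SOX8 of 3178 bp inside the gene, which overlapped SOX9 of 7046 bp at the gene's downstream end, and SOX9 of 7674 bp over the start of its neighbour Igsf8, which overlapped a P2 SOX9 peak beyond the window. Kcnj12, a strong inward rectifier, had P17 SOX8 (1933 bp) and SOX9 (6679 bp) at separate places in the gene. Kcnj11, the pore of the ATP-sensitive channel of neurons and beta cells, had a P17 SOX9 peak of 7088 bp that spanned the whole gene and overlapped neither mark of P17.

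Kcna2 and Kcnh6 were also among the 8. Kcna2, a Kv1 subunit of axons, had P17 SOX9 of 5334 bp over its listed start. Kcnh6, an ERG channel of neurons, had P17 SOX8 of 3756 bp centred 5078 bp downstream of its start. Both had H3K4me3 within the window at both ages, in peaks of 3242 and 4011 bp at Kcna2 and 3064 and 4559 bp at Kcnh6. Those at Kcnh6 lay over the start of the neighbour Dcaf7, and the P2 peak did not touch Kcnh6.

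**Figure D2:**
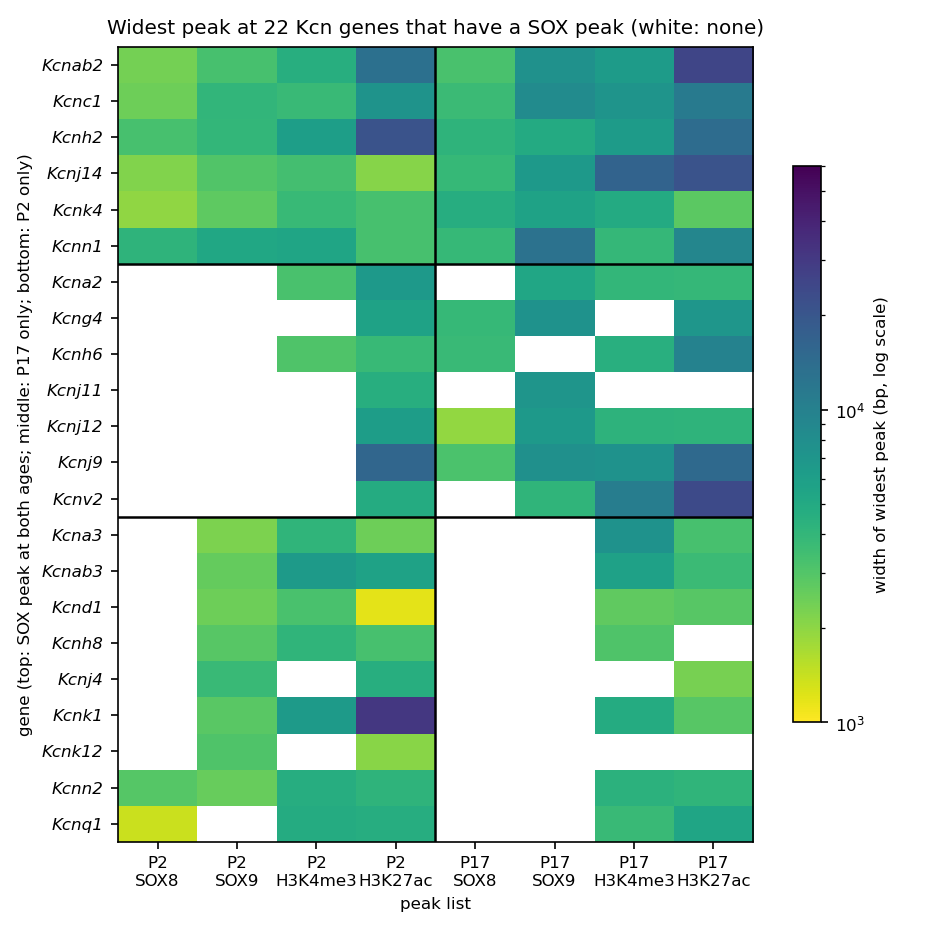
Each row is 1 of 22 of the Kcn genes with a SOX peak, each column a list, and colour gives the width of the widest peak at the gene or its 5 kb flanks in bp on a log scale, with white for none. The top block has genes with SOX at both ages, the middle block genes with SOX at P17 alone, where Kcnv2 has a P17 H3K27ac peak of 24100 bp, and the bottom block 9 genes with SOX at P2 alone, where Kcnk1 has the darkest cell (31038 bp).

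The same direction held for rod markers, of which 1 of 5 had a SOX9 peak at P2 (Crx) and 5 of 5 at P17, and 2 and 4 had SOX8. SOX9 counts went the other way for markers of Müller glia (3 of 5 at P2 and 1 at P17), progenitors (4 of 4 and 1), bipolar cells (2 of 4 and 1) and ganglion and amacrine cells (2 of 4 and 0). The part of a changing share of photoreceptors in the retina in the Kcnv2 peaks was not tested. More such cells and more signal per cell cannot be told apart in whole retina.

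SOX peaks at P2 and none at P17 lay at 9 channel genes (9.68%, against 14.4% of all genes). Kcnn2, a small-conductance calcium-activated channel, was the only one with both factors, in peaks of 2930 bp (SOX8) and 2595 bp (SOX9) inside the gene that overlapped each other and H3K4me3. Kcnq1 had SOX8 alone, of 1389 bp, which lay beyond the gene and overlapped no H3K4me3. The other 7 had SOX9 alone. Its peaks measured 2867 bp at Kcnk1, 2257 bp at Kcna3, 2899 bp at Kcnh8 and 3760 bp at Kcnj4, each over a listed gene start, and 3089 bp at the far end of Kcnk12. At Kcnab3 and Kcnd1 the peaks lay outside the gene, that near Kcnd1 over the start of Otud5.

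H3K4me3 lay within the window at P2 at 7 of the 9 genes, Kcna3, Kcnab3, Kcnd1, Kcnh8, Kcnk1, Kcnn2 and Kcnq1, and at P17 at the same 7 (against 93.6% of all genes with H3K4me3 and SOX at P2 and no SOX at P17). The P2 SOX9 list had 1.92 times the peaks of the P17 list, and with lists of equal length 5 genes in place of 8 lost SOX9, without Kcna3, Kcnd1 and Kcnn2. Of channel genes with a P2 peak, 8 of 15 lost SOX9 (53.3%, against 58.9% of all genes with one) and 2 of 9 lost SOX8 (22.2%, against 46.4%). As shares of all 93 the losses were 8.6% for SOX9 (against 16.3%) and 2.15% for SOX8 (against 7.0%). Each of these shares rests on few genes.

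Channel genes known for their use in particular retinal cells were followed as fixed groups. The glial and pigment epithelial inward rectifiers Kcnj2, Kcnj13 and Kcnj16 had no SOX and no H3K4me3 peak at either age. H3K27ac was present at each at P2, in peaks of at most 1022, 1162 and 3107 bp, and at P17 at Kcnj13 alone (1210 bp). The microglial channels Kcnk13 and Kcnn4 had H3K27ac at both ages and no other peak.

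Of the photoreceptor channel genes, Kcnv2 is described above. Kcnma1, the large-conductance calcium-activated channel, had H3K4me3 over its listed start at both ages (3867 and 4355 bp). At P17 it also had an H3K4me3 peak of 5843 bp far inside the gene and H3K27ac of up to 28204 bp. It had no SOX peak. Kcnh1 had H3K27ac alone. Of 6 genes of inner retinal neurons, Kcnj14, Kcnc1 and Kcna2 had SOX at P17. Kcnc2, a further Kv3 gene, had H3K4me3 at both ages and no SOX, in contrast to Kcnc1. Kcna1 had P17 H3K4me3 of 5413 bp and no other peak, and Kcnip1 only H3K27ac.

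Across families, SOX peaks in any list (33.8% of all genes) lay at 10 of 30 Kv pore genes, 5 of 14 inward rectifiers, 3 of 14 K2P genes, 2 of 10 silent subunits, 2 of 8 calcium- or sodium-gated genes and 2 of 17 accessory genes. The silent subunits had none at P2 in either SOX list or in H3K4me3, and their 2 genes with SOX at P17 were Kcng4 and Kcnv2. P17 H3K4me3 (50.9% of all genes) lay at 21 of 30 Kv pore genes, 5 of 14 inward rectifiers, 4 of 14 K2P genes, 3 of 8 calcium- or sodium-gated genes, 5 of 17 accessory genes and 1 of 10 silent subunits, which was Kcnv2. By number the Kv pore genes, the largest family, rose most, from 15 at P2. As a share of the family the inward rectifiers rose about as much, from 2 of 14.

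H3K4me3 was present at both ages at 26 channel genes (28.0%, against 45.9%). At Kcnh4, Kcne2, Kcnd1 and Kcnk4 the peaks of both ages lay outside the gene, over starts of neighbours. These genes are in the family counts above too. Without the flanks, 21 genes had H3K4me3 at P2 and 34 at P17, and no background was counted for that setting. With the flanks, H3K4me3 was gained from P2 to P17 at 13 channel genes (14.0%, against 5.0% of all genes). It was lost at 1 (1.08%, against 3.4%), the K2P gene Kcnk10. Of channel genes without P2 H3K4me3, 13 of 66 gained it (19.7%, against 9.86%). The 13 included Kcna1, Kcna4, Kcna6, Kcnc4 and Kcnh5 among Kv pore genes, Kcnv2 among silent subunits, Kcnj6, Kcnj9 and Kcnj12 among inward rectifiers, Kcnk3 and Kcnk6 among K2P genes, and Kcnab1. The P17 peak touched the gene itself at 12, and at Kcnk6 it lay over the start of Yif1b. Kcnk6 alone was lost from the 13 when peaks were trimmed to 500 bp.

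A P17 SOX peak was present at 4 of the 13 genes that gained H3K4me3 (30.8%, against 19.5% of all genes that gained it), Kcnv2, Kcnj9 and Kcnj12 among them. The new peaks at the other 9 had widths from 2380 bp (Kcnk6) to 6185 bp (Kcnh5). P17 H3K27ac was present at 10 of the 13 (76.9%, against 88.8%) and absent at Kcna1, Kcna4 and Kcnc4. The gains span axonal Kv1 channels (Kcna1, Kcna4, Kcna6), a Kv3 channel (Kcnc4) and a leak channel (Kcnk3, TASK1).

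The extent of P17 H3K27ac differed at the median between channel genes with and without a P17 SOX peak, but the groups overlapped. The share of each gene's window (the gene with its 5 kb flanks) under P17 H3K27ac peaks had a median of 62.2% over the 15 channel genes with a P17 SOX peak and 0.123% over the other 78. Over all protein-coding genes these medians were 31.5% and 0.0%. High values among the 15 were 90.6% at Kcnv2, 86.8% at Kcnj14, 81.6% at Kcnj9, 79.4% at Kcnh2, 75.1% at Kcnn1 and 70.5% at Kcnab2. The lowest was 0.0% at Kcnj11.

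Of the 11 channel genes covered over 50%, a limit set after the values were seen, 10 had a P17 SOX peak (90.9%, against 59.4% of all genes covered to that extent). The exception was Kcna5, at 93.6%. Of 42 genes covered up to 50%, 4 had one (9.52%, against 25.4%). At P2 the same split gave 4 of 14 genes over 50% (28.6%, against 54.4%), and the medians were 20.2% with and 18.7% without a SOX peak (39.0% and 13.7% over all genes). Kcnk1, almost wholly covered at P2 (98.8%) and to 7.69% at P17, had SOX9 at P2 alone. Kcnk5 was covered to 84.2% at P2 and had no SOX peak and no P17 H3K27ac. The cover at P2 rests on a list of 9.62 times as many peaks as that of P17. By gene, H3K27ac was present at both ages at 53 (57.0%, against 56.7%), at P2 alone at 35 (37.6%, against 25.1%) and at P17 alone at none (against 0.315%).

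**Figure D3:**
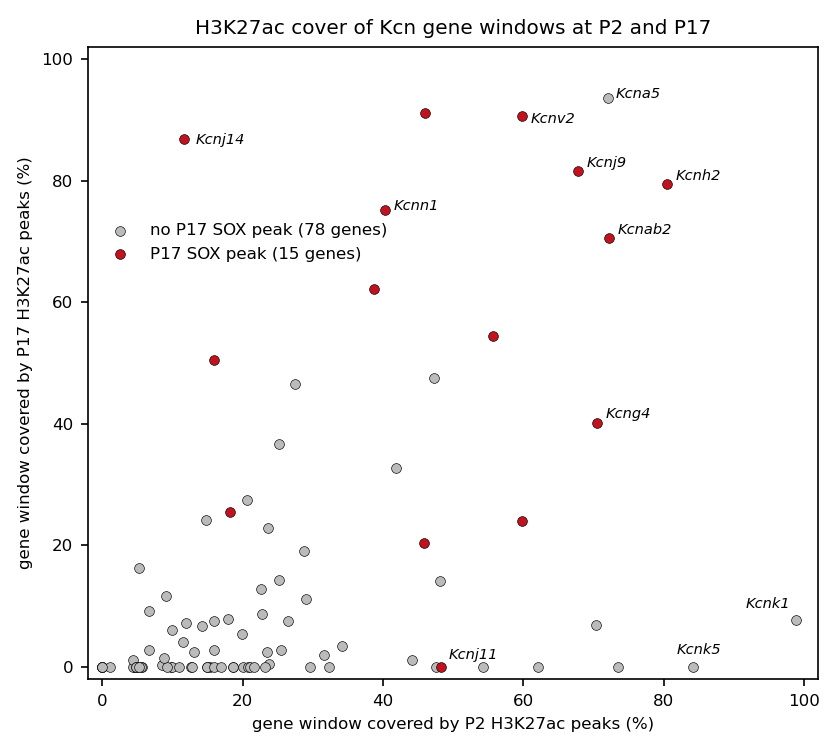
Each point is 1 of 93 Kcn genes, with the percentage of its window under P2 H3K27ac peaks on the x axis and under P17 H3K27ac peaks on the y axis, in red where a P17 SOX peak is present. Of the 11 genes over 50% at P17, 10 are red, and Kcna5 is the grey one, while Kcnj11 is red at 0.0%.

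Gene length bears on such counts, since a long window meets more peaks. The median length was 32507 bp for channel genes, from 1446 bp (Kcne1l) to 1135620 bp (Kcnip4), and 17170 bp for all genes. Channel genes over 100 kb nevertheless had few SOX peaks. Of 23 such genes, 2 had SOX9 and 2 SOX8 at P2 (8.7% each, against 36.8% and 19.0% of all genes over 100 kb), and none had SOX at P17 (against 17.1% for SOX9 and 13.7% for SOX8). Of 36 genes under 20 kb, 7 had P17 SOX9 (19.4%, against 14.9%), and of 34 in between also 7 (20.6%, against 16.6%). The P2 SOX lists lay under the background in each length class, with P2 SOX9 at 16.7% against 22.7% under 20 kb and 20.6% against 32.6% in between. P17 H3K27ac, equal to the background over all 93, was not so by length. It lay at 47.2% against 46.7% under 20 kb, 61.8% against 67.3% in between and 65.2% against 75.1% over 100 kb. P2 H3K27ac exceeded the background mostly under 20 kb (88.9% against 71.2%), less in between (97.1% against 92.6%) and little over 100 kb (100% against 99.3%).

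The SOX peaks at channel genes were wider at the median than SOX peaks at genes in general, in all 4 lists. The medians were 2426.5 bp over 10 P2 SOX8 peaks (2211 bp over all such peaks at genes), 3025 bp over 17 P2 SOX9 peaks (2649.5 bp), 3495.5 bp over 16 P17 SOX8 peaks (2903 bp) and 6663 bp over 23 P17 SOX9 peaks (5310 bp). H3K4me3 peaks at channel genes were also wider at the median, at 3955 bp against 3543 bp (P2) and 4429 bp against 3707 bp (P17). So were P17 H3K27ac peaks (3521 bp against 3317 bp), while P2 H3K27ac peaks were narrower (1105 bp against 1268 bp). The narrowest P17 SOX9 peak here measured 3585 bp, and P2 SOX8 peaks ranged from 1389 to 4176 bp. No SOX peak lay in the windows of 2 channel genes.

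A smaller share of the SOX peaks covered a listed start of their own gene at P17 than at P2, as over all genes. Among peaks at genes with a listed start, 8 of 12 P2 SOX9 peaks covered such a start of the gene (66.7%, against 70.4% over all genes) and 5 of 16 P17 SOX9 peaks did (31.2%, against 55.9%). For SOX8 the counts were 3 of 6 at P2 (50%, against 73.9%) and 5 of 13 at P17 (38.5%, against 54.8%). A peak outside these counts can still lie at a start. Only the start of another gene was covered by 2 further P2 SOX9, 4 P17 SOX9, 2 P2 SOX8 and 3 P17 SOX8 peaks. That share was not counted over all genes. The peaks over the upstream end of Kcnh2 covered no listed start of it. H3K4me3 of the same age was overlapped by 14 of 17 P2 SOX9 peaks (82.4%, against 84.9% of all such peaks at genes) and 15 of 23 P17 SOX9 peaks (65.2%, against 68.7%). P17 H3K27ac was overlapped by 16 of 16 P17 SOX8 peaks (against 84.8%) and 22 of 23 P17 SOX9 peaks (95.7%, against 85.2%), with the peak over Kcnj11 as the exception. The SOX9 peak at the Kcnj4 start was the 1 of 17 at P2 without H3K27ac.

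**Figure D4:**
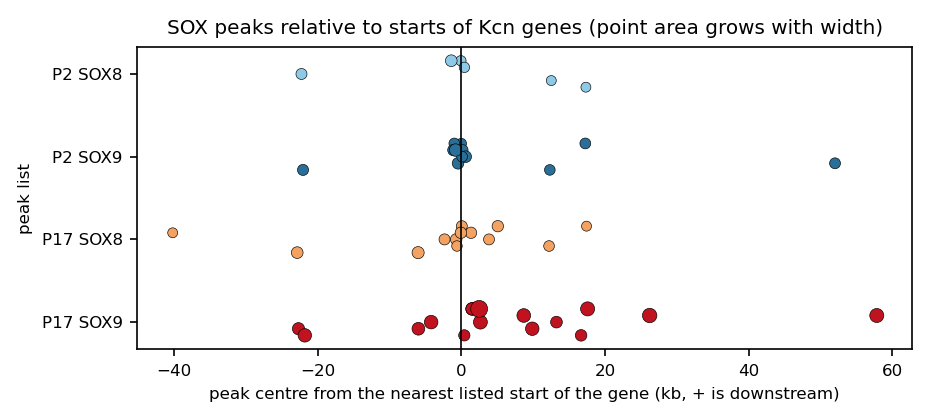
Each point is a SOX peak at a Kcn gene with a start listed by RefSeq, placed by the distance of its centre from the nearest listed start in kb (positive is downstream), in 1 row per list, with area growing with peak width. Of the P2 SOX9 points 8 of 12 cover a listed start of the gene and of the P17 SOX9 points 5 of 16. The farthest lie 52035 bp (Kcnk12) and 57850 bp (Kcnab2) downstream.

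SOX8 peaks at channel genes mostly overlapped SOX9, and about as many SOX9 peaks overlapped SOX8 as did not. Of 10 SOX8 peaks at P2, 9 shared bases with SOX9 (90.0%, against 94.7% of all SOX8 peaks at genes), and the one that did not was at Kcnq1. At P17, 12 of 16 did (75.0%, against 59.9%). In the other direction, 9 of 17 P2 SOX9 peaks (52.9%, against 46.8%) and 11 of 23 P17 SOX9 peaks (47.8%, against 48.5%) overlapped SOX8. By gene, both factors were present at 8 channel genes at P2 (8.6%, against 14.5%) and at 11 at P17 (11.8%, against 9.29%). Either factor was present at 16 at P2 (17.2%, against 28.4%) and 15 at P17 (16.1%, against 19.5%). SOX8 alone was found at Kcnq1 at P2 (1.08%, against 0.631%) and at Kcnh6 at P17 (1.08%, against 3.73%). SOX9 alone was found at 7 genes at P2 (7.53%, against 13.3%) and at Kcna2, Kcnj11 and Kcnv2 at P17 (3.23%, against 6.44%).

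Genes that work with these channels were counted as a fixed list of 21 from outside the Kcn symbols. P17 SOX9 lay at 8 (38.1%, against 15.7% of all genes) and P2 SOX9 at 6 (28.6%, against 27.7%). The HCN pacemaker channels, relatives of Kv channels that open on hyperpolarization, had SOX9 at P17 at 3 of 4 genes, Hcn2 and Hcn4 among them, and no SOX at P2 at any of the 4. Of 6 sodium pump genes, which restore the potassium gradient, P2 SOX9 lay at 4, among them the beta subunit genes Atp1b1, Atp1b2 and Atp1b3, and P17 SOX9 at 2, among them Atp1b2. Abcc8, the partner of Kcnj11 in the ATP-sensitive channel, had the same P17 SOX9 peak of 7088 bp in its window, as the genes are neighbours. Of 4 cotransporters, P17 SOX9 lay at Slc12a5, which extrudes chloride with potassium in neurons.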

How the data were processed

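The authors deposited 8 peak lists from CUT&RUN of whole mouse retina, with chromosome, start and end of each peak in bp. The deposited score was 0 in every peak and was not used. The submitters' processing notes name Bowtie2, SEACR and GRCm38. The threshold, the use of IgG and the way libraries were combined are not given in the sources used here. Each list was taken for its age and target group, and names no replicate, so neither a test nor an error was possible and depth is unknown.

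Genes came from RefSeq on GRCm38.p6, and listed starts and promoters from its promoter table, which held 68 of the 93 genes. A gene had a peak where at least 1 bp overlapped the gene with 5 kb flanks. Positions count from 1. Python 3.11.15, pandas 2.3.3 and numpy 2.4.6 were used, and the overlap search was tested on simulated data. Alternatives were the gene without flanks, 1 kb around starts (both gene ends where no start is listed), the wider 50% of each list, peaks trimmed to 500 bp, a shortened P2 H3K27ac list and, added later, lists of equal length. Named genes were those in 3 or 4 SOX lists, with SOX at P17 alone, with both factors at P2 alone, with the widest peak of a list, or in the fixed retina groups; others named in counts of few genes were chosen after their values were seen. The members and lists were chosen with earlier results of these data known. Some genes and their values are not reported here.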

Additional observations from a re-analysis of the deposited data

How the results depend on the processing

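Of 63 alternative counts, 51 lay within 1.5 times the count reported. This compares totals and not the genes counted. With the wider 50% of each list, the SOX8 gains were again 5, but only 3 were the same genes. The SOX9 losses were 6 in place of 8, with 4 genes kept. The H3K4me3 loss was again 1, but at Kcnh8 in place of Kcnk10. Within 1 kb of gene starts, 4 genes had P2 SOX8, 9 P2 SOX9, 7 P17 SOX8 and 33 P17 H3K27ac, and 3 gained SOX8, 0 lost SOX8 and 5 lost SOX9. That window is shorter by construction. With the shortened P2 H3K27ac list, 48 genes had a P2 H3K27ac peak. The loss of SOX8, at 2 genes, was 1 without flanks, 1 with the wider 50% of each list and 1 with lists of equal length, since Kcnq1 dropped out. The loss of SOX9 was 5 with lists of equal length. Trimming to 500 bp and leaving out the flanks left the SOX gains at 5 for SOX8 and at 7 and 8 for SOX9. No paired analysis was possible because no list names a replicate.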
